A study of Mus musculus with 4 samples.

Results

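A set of 9 genes of platelets, fibrin and clotting was followed across 4 one-colour Agilent arrays of mouse prefrontal cortex. The members were taken by name from the gene column of the scanner files, non-control spots only. They were the platelet chemokines Ppbp and Pf4, the factor XIII A chain F13a1, the fibrinogen chains Fga, Fgb and Fgg, the plasminogen activator Plat, thrombospondin Thbs1 and the adhesion protein gene Vwf. These 9 genes, of 27248 gene symbols on the array, had 16 of its 56605 probes. They were chosen with earlier results from these same arrays known, among them the low Ppbp signals on both sucrose arrays, so their changes are given as descriptions and no p-value is attached to any of them.

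Each array held the cortex of 1 group of B6J mice, 3 months of age, on a diet that began at weaning on postnatal day 21 and lasted about 70 days. Wild-type mice ate starch (the control group) or sucrose, and mice heterozygous for Glo1, the gene of glyoxalase 1, ate starch or sucrose. In every group 3 separate RNA samples were pooled, 200 ng of RNA was labelled with Cy3, and the pool was hybridised to 1 array, so there was no replicate and no spread between animals could be measured. The 4 arrays lay on 1 slide with 1 group at each position, so position and group cannot be told apart. In RNA of a whole tissue, fewer cells of a type and less RNA per cell cannot be told apart either. The labels name no step that cleared blood from the vessels, and how the Glo1 allele was made is not given in the sources used here.

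Platelets have no nucleus and carry messenger RNA left by the megakaryocyte, their parent cell in bone marrow. At a wound, von Willebrand factor tethers platelets to the vessel wall, activated platelets release granule proteins such as the chemokines encoded by Ppbp and Pf4, thrombin turns fibrinogen into fibrin, and factor XIII cross-links the fibrin strands. Tissue plasminogen activator, encoded by Plat, starts the removal of the clot. Several of these genes also have sources inside the brain: endothelium makes von Willebrand factor, macrophages at the borders of the brain carry Pf4 and F13a1 transcripts, and neurons make tissue plasminogen activator. Fibrinogen is a product of the liver.

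Ppbp and Pf4 lie side by side in the chemokine cluster of chromosome 5, and their probes on the array were 3245 bases apart (build mm9, probe of Ppbp at chr5:91198970-91199029 and probe of Pf4 at chr5:91202275-91202334, both on the plus strand). Their upstream sequences are shown because the genes are neighbours and both are carried by platelets. Their signals differed in how far they moved between the arrays, and any link of these sequences to that was not tested. The windows are the 250 bases before each gene's start in RefSeq (GRCm38.p6), chr5:90768268-90768517 for Ppbp and chr5:90772185-90772434 for Pf4, plus strand, 5′ to 3′. Capitals mark matches on either strand to the ETS core GGAAGT and the TATA box TATAAA, motifs chosen after the windows had been seen; no match overlapped another.
Ppbp promoter: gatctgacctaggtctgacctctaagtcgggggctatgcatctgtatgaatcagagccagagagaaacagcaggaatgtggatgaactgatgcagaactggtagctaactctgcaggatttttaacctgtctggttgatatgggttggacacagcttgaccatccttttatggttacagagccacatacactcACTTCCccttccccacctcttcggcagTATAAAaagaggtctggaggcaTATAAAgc
Pf4 promoter: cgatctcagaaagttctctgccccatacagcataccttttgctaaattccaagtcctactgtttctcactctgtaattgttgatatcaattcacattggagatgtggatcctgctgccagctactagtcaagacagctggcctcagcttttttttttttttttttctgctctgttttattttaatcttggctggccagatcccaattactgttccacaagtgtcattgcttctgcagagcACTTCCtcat
The Ppbp window held 1 ETS core match and 2 TATA box matches, and the Pf4 window held 1 ETS core match and no TATA box match. Of 32851 RefSeq windows of this length, 19.7% held the ETS core, 12.4% the TATA box and 2.05% both. Neither window held a GATA word (A or T, then GATA, then A or G), which 26.5% of all windows held. Windows were found for 6 of the 9 genes, all but Plat, Thbs1 and Vwf. The first 30 of the 60 bases of the probes that gave the Ppbp and Pf4 values were as follows, with no capitals set.
Ppbp probe: ctggtcatgaccatgtttttccaatttctt
Pf4 probe: ctggagagttaggtatcagctgcctaaatg

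All levels below are processed intensities as multiples of the array's own 75th percentile over non-control spots, and all changes are differences of log2 levels between 2 arrays. A probe was taken as measured when the scanner software marked it well above background on all 4 arrays. This held for 11 of the 16 probes, and these belonged to 6 genes, Ppbp, Pf4, F13a1, Plat, Thbs1 and Vwf. A further probe, of Fga, was well above background on 2 arrays, and 4 probes, of F13a1, Fga, Fgb and Fgg, on none. The value after ± is the SD expected for a difference of single spots at that level, taken from probes printed at least 10 times on these arrays. It rests on 3 to 8 such probes, covers spot noise only, and leaves out RNA preparation, labelling and the animals.

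The array that stands for each group measured 77.6% to 80.2% of its spots well above background, with 75th percentiles from 1780 to 1929 intensity units and no saturated spot. Across the series 42094 probes and 20655 genes were measured on all 4 arrays. The brightest Glo1 probe was lower on the heterozygous array of each diet, by a log2 change of -0.56 on starch and -0.86 on sucrose. All 6 cortical neuron markers were measured, with summed levels from 111 to 133. Choroid plexus markers stood apart on the heterozygous sucrose array, with a summed level of 68.9 against 0.587 to 2.07 on the other 3.

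**Figure D1:**
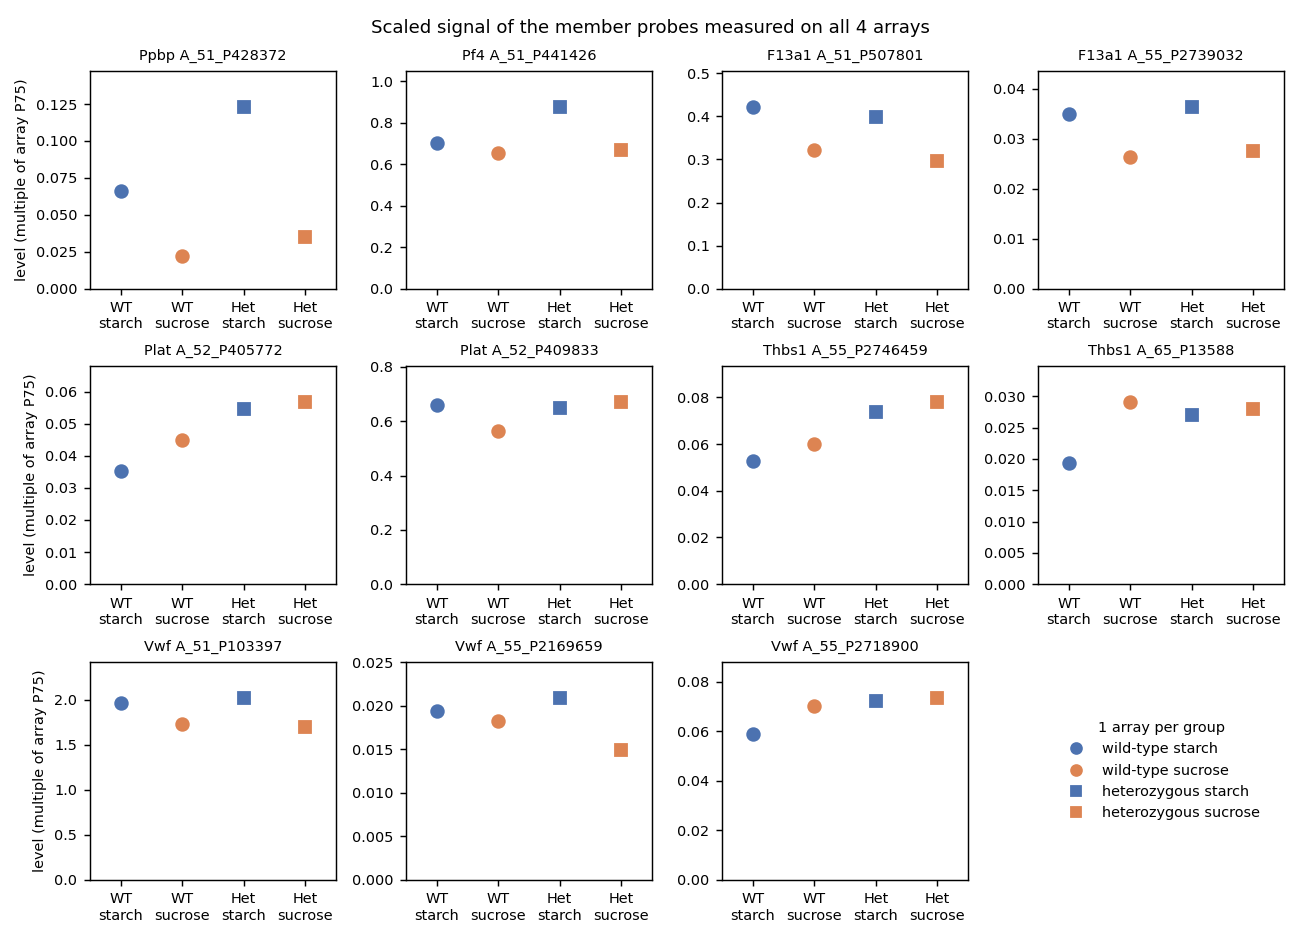
Levels of the 11 probes measured on all 4 arrays (y axis, multiple of the array's 75th percentile, linear from 0), 1 panel per probe; WT is wild-type and Het is heterozygous for Glo1, circles and squares mark the genotypes, blue is starch and orange sucrose, and each point is 1 array. Ppbp ran from 0.0224 to 0.123, while the brightest probe of Vwf ran from 1.70 to 2.02.

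Ppbp encodes pro-platelet basic protein, the precursor of a neutrophil-attracting chemokine stored in platelet alpha granules. Its single probe (A_51_P428372) had a level of 0.0659 on the wild-type starch array, 0.0224 on wild-type sucrose, 0.123 on heterozygous starch and 0.0349 on heterozygous sucrose. Both starch arrays were above both sucrose arrays, and within each diet the heterozygous array was the higher. The signal was 2.94-fold lower on sucrose in wild-type mice (log2 change -1.55 ± 0.27) and 3.52-fold lower in heterozygous mice (-1.82 ± 0.27). These changes were larger than the noise of single spots, and the diet change of the genotypes differed by -0.26, which was within it.

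Between genotypes the Ppbp signal was 1.87-fold higher in heterozygous mice on starch (0.90 ± 0.26) and 1.55-fold higher on sucrose (0.64 ± 0.27). Neither passed 2-fold. From the lowest array to the highest the probe spanned 5.48-fold, the order being wild-type sucrose, heterozygous sucrose, wild-type starch and heterozygous starch. Against wild-type starch, the heterozygous sucrose array had a log2 change of -0.92 ± 0.28.

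Ppbp was the only 1 of the 6 measured members past 2-fold for diet in wild-type mice, where 1.48% of all 20655 measured genes passed it in either direction, and the only one in heterozygous mice, where 1.77% did. Genes 2-fold or more lower on sucrose made up 0.992% among wild-type and 0.479% among heterozygous mice. Ppbp ranked 63 from the lowest change in wild-type mice and 22 from the lowest in heterozygous mice. It was 1 of 23 genes that were 2-fold or more lower on sucrose in both genotypes, which is 0.111% of the genes measured. Among the 5164 genes of its own signal quartile, the dimmest, this share was 0.271%, and 2.34% and 1.3% were lower by 2-fold in wild-type and heterozygous mice. As the gene was picked with this pattern known, these shares describe its place and support nothing.

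The Ppbp probe was dim, with intensities of 117.3, 42.77, 231.3 and 67.28 units on wild-type starch, wild-type sucrose, heterozygous starch and heterozygous sucrose, and 19.1% of measured genes were dimmer. With normexp background correction, which adds an offset of 50 units and so shrinks changes of dim probes, the diet change was -0.89 in wild-type mice, under 2-fold, and -1.17 in heterozygous mice. The genotype change became 0.58 on starch and 0.31 on sucrose, and that for both factors -0.58.

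Pf4 encodes platelet factor 4, the other chemokine of the alpha granule, which binds heparin. The levels of its single probe (A_51_P441426) were 0.700 on wild-type starch, 0.656 on wild-type sucrose, 0.876 on heterozygous starch and 0.667 on heterozygous sucrose. The heterozygous starch array was the highest, and the other 3 lay close together. On sucrose the change was -0.09 ± 0.12 in wild-type mice, within spot noise, and -0.39 ± 0.10 in heterozygous mice, a 1.31-fold lower signal. On starch, heterozygous mice were 1.25-fold higher than wild-type (0.32 ± 0.11). On sucrose the genotype change was 0.02 ± 0.11, which turned to -0.02 with median scaling. The heterozygous starch array was thus the highest for both chemokine genes, but the diet changes of Ppbp were far from those of Pf4 in both genotypes.

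F13a1 encodes the A chain of factor XIII, the transglutaminase that cross-links fibrin. Its brightest probe (A_51_P507801, chr13:36959214-36959273, build mm9, minus strand) had levels of 0.422 on wild-type starch, 0.323 on wild-type sucrose, 0.399 on heterozygous starch and 0.297 on heterozygous sucrose. Both sucrose arrays were below both starch arrays. The diet change was -0.39 ± 0.12 among wild-type and -0.42 ± 0.11 among heterozygous mice, and the genotype changes of -0.08 ± 0.12 and -0.12 ± 0.12 were no larger than spot noise. A second probe (A_55_P2739032, chr13:37061516-37061575), designed on a cDNA record, gave levels of 0.0349, 0.0264, 0.0364 and 0.0276 in the same order. Its diet changes were -0.40 in both genotypes, so the probes gave the same size of difference for diet. The third (A_55_P2186125) was well above background on no array.

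**Figure D2:**
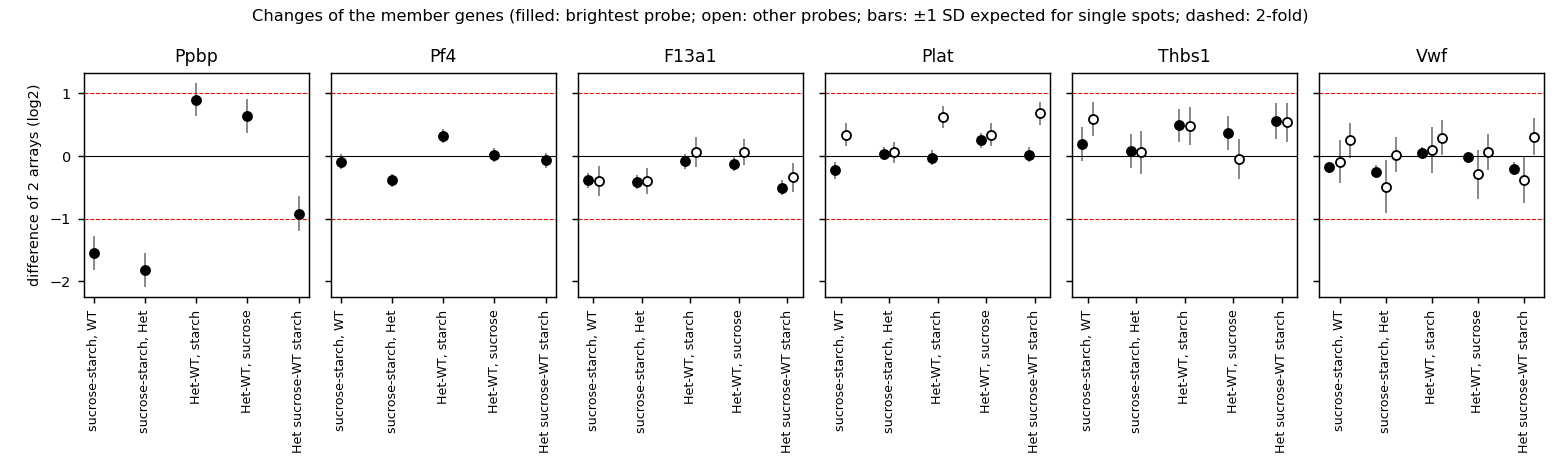
Log2 changes (y axis) of the 6 measured genes in the 5 comparisons (x axis; WT wild-type, Het heterozygous); filled points are the brightest probe, open points the other measured probes, bars ±1 SD expected for single spots, and dashed lines 2-fold. Only the 2 diet changes of Ppbp, -1.55 and -1.82, lie beyond the 2-fold lines.

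The fibrinogen chains gave almost no signal in this tissue. The Fgb probe (A_51_P428483) and the Fgg probe (A_51_P362176), both on chromosome 3, were not well above background on any array, with intensities of 2.435 to 6.884 and 2.902 to 8.616 units, so no fold is given. Of the Fga probes, A_51_P193813 was above background on none. The other (A_55_P2123381, chr3:82837260-82837319) was well above background on both wild-type arrays, at levels of 0.00771 on starch and 0.00696 on sucrose. On the heterozygous arrays its signals of 0.00554 and 0.00578 were not well above background. Against the lowest signal well above background on the heterozygous array, the wild-type signal was 1.15-fold higher on starch and 1.04-fold higher on sucrose. The genotype changes of this probe were -0.48 ± 0.46 on starch and -0.27 ± 0.47 on sucrose. They were thus about as large as spot noise or within it, and no genotype difference can be given for Fga. The diet change in wild-type mice was -0.15 ± 0.42. Of 7 hepatocyte markers, 3 were measured on all arrays, and Apoa1, Apob, Ahsg and Ambp were not. Their summed levels were 3.52, 3.19, 2.57 and 2.67 on wild-type starch, wild-type sucrose, heterozygous starch and heterozygous sucrose, mostly from Apoa2 (3.48, 3.15, 2.53 and 2.63), and their part in the Fga signal was not tested.

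Vwf encodes von Willebrand factor, which carries factor VIII in plasma and binds platelets to exposed collagen. Its brightest probe (A_51_P103397, chr6:125636551-125636610) had levels of 1.96 on wild-type starch, 1.73 on wild-type sucrose, 2.02 on heterozygous starch and 1.70 on heterozygous sucrose. Both sucrose arrays were slightly below both starch arrays, and the diet change was -0.18 ± 0.09 among wild-type and -0.25 ± 0.10 among heterozygous mice. The genotype changes were 0.05 ± 0.09 on starch and -0.02 ± 0.09 on sucrose. The other probes, on Ensembl transcripts and dimmer, did not show one direction. A_55_P2169659 gave diet changes of -0.09 and -0.49, and A_55_P2718900 gave 0.25 and 0.02, and with the mean over the probes the change in wild-type mice was -0.01. All 12 endothelial markers were measured, with median diet changes of 0.03 for the wild-type and 0.02 for the heterozygous pair and summed levels of 43.1, 32.1, 36.4 and 32.0 in the order of the arrays above. Their part in the Vwf values was not tested.

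Thbs1 encodes thrombospondin 1, an adhesive protein of the alpha granule that astrocytes and fibroblasts also secrete. Its brightest probe (A_55_P2746459, chr2:117952585-117952644) had levels of 0.0526 on wild-type starch, 0.0602 on wild-type sucrose, 0.0736 on heterozygous starch and 0.0778 on heterozygous sucrose. Both heterozygous arrays were above both wild-type arrays. The genotype change was 0.49 ± 0.26 on starch and 0.37 ± 0.27 on sucrose, and the diet changes of 0.19 ± 0.27 and 0.08 ± 0.27 were within spot noise. With normexp the genotype change was 0.22 on starch and 0.23 on sucrose. The second probe (A_65_P13588, chr2:117950962-117951021) had levels of 0.0193, 0.0290, 0.0270 and 0.0280, with only the wild-type starch array apart. It gave a genotype change of 0.48 ± 0.30 on starch and -0.05 ± 0.32 on sucrose, so on sucrose the probes differed in sign. The 8 fibroblast markers had median genotype changes of 0.19 on starch and 0.30 on sucrose, and their part in the Thbs1 values was not tested.

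Plat encodes tissue plasminogen activator, which turns plasminogen into plasmin and is made by neurons as well as endothelium. Its brightest probe (A_52_P409833, chr8:23892531-23892590) had levels of 0.661 on wild-type starch, 0.565 on wild-type sucrose, 0.649 on heterozygous starch and 0.669 on heterozygous sucrose. Only the wild-type sucrose array was lower, with a diet change of -0.23 ± 0.13 there and 0.04 ± 0.11 in heterozygous mice. The genotype change was -0.03 ± 0.12 on starch and 0.25 ± 0.12 on sucrose. The dimmer probe (A_52_P405772, chr8:23886301-23886360), designed on a cDNA record, differed from it, with levels of 0.0354, 0.0448, 0.0545 and 0.0566, diet changes of 0.34 and 0.06 and a genotype change of 0.62 on starch. With the mean over both probes the wild-type diet change became 0.06 and the genotype change on starch 0.30, so no direction can be given for Plat in these comparisons.

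As a group, the measured genes other than Ppbp differed by less than 1.5-fold in all 5 comparisons by their brightest probes. Of their dimmer probes, that of Thbs1 passed it for diet in wild-type mice (0.59) and that of Plat for genotype on starch (0.62) and for both factors together (0.68). By brightest probes Ppbp was the 1 member past 1.5-fold in each, where 5.93% of all genes passed it for diet in wild-type mice, 5.57% for diet in heterozygous mice, 3.97% for genotype on starch, 4.58% for genotype on sucrose and 7.32% for both factors. With normexp Ppbp stayed past 1.5-fold for diet and was under it in the other 3 comparisons. For diet, 5 of 6 were below 0 in wild-type mice (50.1% of all genes) and 4 of 6 in heterozygous mice (49.9%). Below 0 in both genotypes were 4 of 6, Ppbp, Pf4, F13a1 and Vwf (30.2%). Counted by probe, 7 of 11 were below 0 in wild-type mice (50.6% of measured probes) and 6 of 11 in heterozygous mice (50.7%). The median diet change of the 6 genes was -0.20 among wild-type and -0.32 among heterozygous mice. The median of all genes was 0 to 2 decimals. For genotype, 0 of 6 passed 2-fold on starch (0.813% of all genes) or on sucrose (1.71%), with medians of 0.18 and 0.13 against -0.02 for all genes. Ppbp, Pf4 and Thbs1 were above 0 in heterozygous mice on both diets, as were 24.2% of all genes. On sucrose, however, the Pf4 change was 0.02 ± 0.11, and the second Thbs1 probe gave -0.05. On the heterozygous sucrose array against the wild-type starch array, where diet and genotype both change, 0 of 6 passed 2-fold (2.0% of all genes) and the median was -0.14. Comparisons that use the same array, such as diet in wild-type mice and genotype on starch, share its error.

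**Figure D3:**
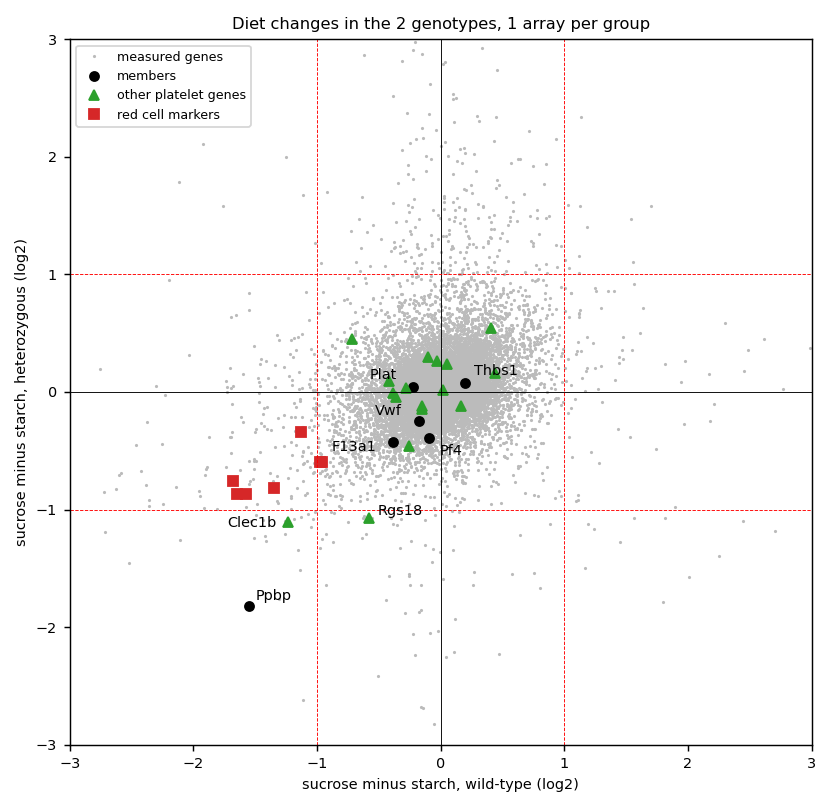
Diet change in heterozygous mice (y axis) against diet change in wild-type mice (x axis), both as log2 of sucrose over starch; black circles are the 6 measured members, green triangles the other platelet genes, red squares the red cell markers, grey dots all measured genes, and dashed lines 2-fold. Ppbp (-1.55, -1.82) and Clec1b (-1.23, -1.11) lie past 2-fold on both axes, and 35 of 20655 genes beyond 3 in size on either axis are not drawn.

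The other genes of platelets and clotting came from 5 lists with 61 genes, of which 51 were measured on all 4 arrays. Past 2-fold were 2 of 51 for diet in wild-type mice (3.92%), 4 for diet in heterozygous mice (7.84%), 0 for genotype on starch, 4 for genotype on sucrose (7.84%) and 2 for both factors together (3.92%). The shares over all genes were those given above. In all, 7 of 51 genes passed in at least 1 of the 5 comparisons, as did 3.95% of all genes and, of the members, Ppbp.

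Of the 20 other platelet genes, 17 were measured, and the receptor chains Gp1ba and Gp6 and the thrombin receptor F2rl3 were not. Their median diet change was -0.15 in wild-type mice, with 12 of 17 lower on sucrose (50.1% of all genes), and 0.01 in heterozygous mice, with 8 of 17 lower (49.9%). Clec1b, which encodes the podoplanin receptor CLEC-2 of platelets, was past 2-fold for diet in both genotypes. The levels of Clec1b (A_51_P233583, chr6:129355215-129355274) were 0.0316 on wild-type starch, 0.0135 on wild-type sucrose, 0.0467 on heterozygous starch and 0.0217 on heterozygous sucrose. The arrays had the same order as for Ppbp, and the diet changes were -1.23 ± 0.27 and -1.11 ± 0.34. With normexp they were -0.48 and -0.45, under 2-fold. The Clec1b intensities were 25.65 to 87.98 units.

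Rgs18, a regulator of G protein signalling found in platelets and other blood cells, was the second platelet gene past 2-fold. The levels of Rgs18 were 0.0316, 0.0211, 0.0334 and 0.0159 on wild-type starch, wild-type sucrose, heterozygous starch and heterozygous sucrose. Its diet change was -0.58 ± 0.27 among wild-type and -1.07 ± 0.34 among heterozygous mice, or -0.49 in the latter with normexp. The remaining 15 did not pass. The glycoprotein gene Gp9, part of the von Willebrand factor receptor, had diet changes of -0.26 and -0.46, while Gp5, of the same receptor, had 0.41 and 0.54. Itga2b, the integrin chain that defines the megakaryocyte lineage, had -0.72 among wild-type and 0.45 among heterozygous mice, at levels of 0.0074 to 0.0122. Over the 17 genes, 1 was 2-fold or more lower on sucrose in wild-type mice (0.992% of all genes) and 2 in heterozygous mice (0.479%).

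Among the clotting factor genes 10 of 15 were measured, with F9, F10, F13b, Kng1 and F2rl1 left out, and the median diet changes were 0.10 among wild-type and 0.31 among heterozygous mice. F5, the gene of factor V, the cofactor of prothrombin cleavage, was past 2-fold on the heterozygous sucrose array only. Its levels were 0.0509, 0.0546, 0.0508 and 0.957 on wild-type starch, wild-type sucrose, heterozygous starch and heterozygous sucrose, a diet change of 4.24 ± 0.30 in heterozygous mice and 0.10 ± 0.30 in wild-type mice. The 7 measured choroid plexus markers moved with it, all of them past 2-fold higher for diet in heterozygous mice with a median of 4.90, and their part in the F5 signal was not tested. F3, the gene of tissue factor, which starts clotting outside vessels and is made by astrocytes, had diet changes of 0.11 and -0.11.

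Of the 11 fibrinolysis genes 10 were measured. Serpinf2, which encodes the plasmin inhibitor alpha-2-antiplasmin, had levels of 0.0108, 0.00694, 0.0180 and 0.0419 in the same order of arrays. It was higher on heterozygous sucrose than on each of the other arrays, by 1.22 ± 0.45 against heterozygous starch, 2.60 ± 0.41 against wild-type sucrose and 1.95 ± 0.39 against wild-type starch. With normexp these became 0.53, 0.88 and 0.58. A2m, of the protease inhibitor alpha-2-macroglobulin, had levels of 0.0231, 0.0152, 0.0222 and 0.0433 and a genotype change of 1.52 ± 0.32 on sucrose, or 0.62 with normexp. Both genes were highest on the array with the high choroid plexus markers, whose part in these values was not tested.

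In the thrombospondin family all 6 other genes were measured. Thbs4, a thrombospondin of brain and muscle, had levels of 0.457, 0.313, 0.384 and 0.669 and a genotype change of 1.1 ± 0.12 on sucrose. It too was highest on the heterozygous sucrose array, where the choroid plexus markers stood apart, and their part in its value was not tested. Comp, of cartilage oligomeric matrix protein, had levels of 0.0602, 0.0259, 0.0449 and 0.0334 and a diet change of -1.21 in wild-type mice, which was -0.69 with normexp. No spot SD is given for Comp because too few repeated probes had such a signal. The 8 measured anticoagulant genes, of 9, had median diet changes of -0.12 and -0.09, and none passed 2-fold in any comparison.

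The genes nearest to Ppbp over the 4 arrays were found from the Euclidean distance of log2 levels centred on the mean of the arrays, among 20654 other genes. Ppbp was the only measured member that spanned 2-fold and so the only one compared. The nearest was Chrna10, a nicotinic acetylcholine receptor subunit, at a distance of 0.44, with levels of 0.208, 0.0934, 0.356 and 0.140 on wild-type starch, wild-type sucrose, heterozygous starch and heterozygous sucrose. It was followed by 2010004M13Rik at 0.47, with levels of 0.0270, 0.00948, 0.0354 and 0.0150. The third, Ms4a4b, a membrane protein gene of T cells, lay at 0.54 with levels of 0.0282, 0.00975, 0.0363 and 0.0169. Ms4a4b had 2 measured probes, and with their mean its diet changes went from -1.53 and -1.10 to -1.04 and -0.43 and its genotype change on starch from 0.37 to -0.04. Clec1b, the next gene and named here after its value had been seen, lay at 0.57. Only 4 arrays enter these distances.

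**Figure D4:**
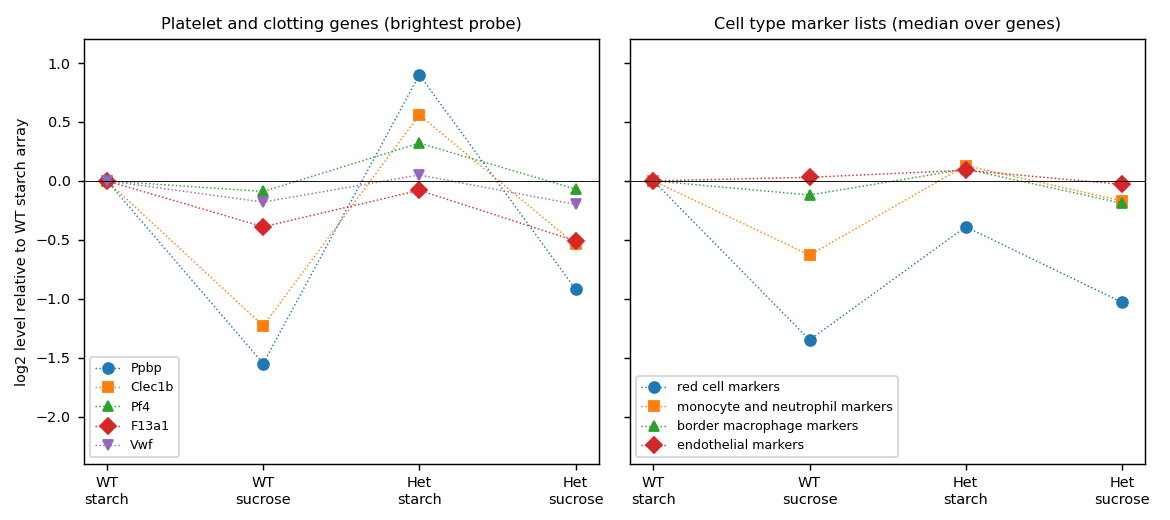
Log2 levels relative to the wild-type starch array (y axis) on the 4 arrays (x axis; WT wild-type, Het heterozygous), for 4 members and Clec1b (left) and as medians over 4 marker lists (right); each point is 1 array and the dotted lines only join points of a gene or list. Ppbp and Clec1b were above wild-type starch on heterozygous starch (0.90 and 0.56), where the red cell median was below it (-0.39).

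Markers of other blood cells also differed between the arrays. Of 9 red cell markers, 7 were measured on all 4 arrays, and in each genotype 7 of 7 had the lower signal on sucrose (50.1% and 49.9% of all genes). The median change was -1.35 among wild-type and -0.75 among heterozygous mice. Their summed levels were 277 on wild-type starch, 135 on wild-type sucrose, 235 on heterozygous starch and 152 on heterozygous sucrose. Red cell markers were thus highest on wild-type starch and Ppbp on heterozygous starch, where 7 of 7 red cell markers were lower than on wild-type starch (median -0.39; 54.0% of all genes). For diet, the change of Ppbp in wild-type mice, -1.55, lay within the range of the red cell markers, -1.68 to -0.96. In heterozygous mice its change of -1.82 lay outside their range of -0.87 to -0.34.

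Of 8 monocyte and neutrophil markers, 7 were measured, with Ngp left out. Their median diet changes were -0.63 among wild-type and -0.40 among heterozygous mice and their summed levels 16.7, 10.8, 14.2 and 10.7. The sum is mostly Ly6c2, at 16.0 on wild-type starch and 13.2 on heterozygous starch, and both medians are the values of Ly6c2. The endothelial marker Ly6c1 had similar diet changes, -0.67 among wild-type and -0.39 among heterozygous mice. Ly6c1 and Ly6c2 each had a genotype change of -0.27 on starch. Which cells gave the Ly6c2 signal was not tested. By count, 7 of 7 markers were lower on sucrose in wild-type mice and 6 of 7 in heterozygous mice. On starch, 5 of the 7 monocyte and neutrophil markers were higher in heterozygous than in wild-type mice (46.0% of all genes). Camp, 1 of the 5, had a change of 0.0. The median genotype change on starch was 0.13, or -0.0 with normexp. The neutrophil genes S100a8 and S100a9 were highest on heterozygous starch, at 0.180 and 0.580, as Ppbp was. Ly6c2 and Ccr2 were highest on wild-type starch, with Ccr2 at 0.0845 there and 0.0124 on heterozygous starch. The 7 border macrophage markers, relevant to Pf4 and F13a1, had median diet changes of -0.12 and -0.21 and summed levels of 1.93, 1.78, 2.05 and 1.73. Among them Lyve1 had diet changes of -0.69 and -0.72, while Mrc1 had changes of 0.07 and -0.13. The part of red cells, leukocytes and border macrophages in the values of Ppbp, Pf4 and F13a1 was not tested.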

How the data were processed

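Total RNA of 4 pools was labelled with Cy3 and hybridised to 4 one-colour arrays, 1 per group. Intensity values are the processed signals of Agilent Feature Extraction 11.5.1.1 (per the submitters' processing notes), which the authors deposited as scanner files; per the file headers, background was subtracted with spatial detrending, and no correction across arrays is recorded. A ratio per spot, also deposited by the authors, was found on comparison to be that signal over the array's 75th percentile.

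From the deposited intensities, each processed signal was divided by the 75th percentile of its array (non-control spots) and turned to log2 (Python 3.11.15, numpy 2.4.6, pandas 2.3.3). Probes well above background on all 4 arrays were compared, with the brightest probe standing for its gene. A change of 2-fold or more was counted. Normexp and quantile values came from limma 3.58.1 (R 4.3.3). With 1 array per group no test was made, and the number of arrays limits the precision. Spot noise of a probe was taken from those of 316 repeated probes that lay within 2-fold of its level, where at least 3 did; each value printed rests on 3 to 8 of them. The computation was tested on simulated data.

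The members, gene lists and motifs were chosen with earlier results of these data known. Named are all 9 members, the other pathway genes past 2-fold in any comparison, and the 3 genes nearest to a measured member that spanned 2-fold. A few further list members are named as examples, chosen after their values were seen. Gene names and probe positions (build mm9) are those of the files. Which exon or untranslated region a probe lies in was not analysed here.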

Additional observations from a re-analysis of the deposited data

Results flagged for a closer look

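Serpinf2 and A2m had diet changes of opposite direction in the genotypes. For Serpinf2 the change was -0.64 among wild-type and 1.22 among heterozygous mice, and for A2m it was -0.61 and 0.97. With normexp the values were -0.30 and 0.53 for Serpinf2 and -0.34 and 0.39 for A2m. Each value is a difference of 2 arrays, and the difference between the genotypes was not tested.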

How the results depend on the processing

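The counts of members past 2-fold, the gene changes and the list medians were recomputed under 8 alternatives (7 for genes such as Ppbp that the stricter filter leaves out): median scaling, quantile normalisation, normexp, the authors' value table, outlier spots kept, no filter on dim probes, only probes above the median signal, and the mean over probes. The number of members past 2-fold for diet in wild-type mice, 1 in the main setting, was 0 with normexp, 3 without the filter and 0 among probes above the median signal. For diet in heterozygous mice it was 1, with 3 without the filter and 0 above the median signal. Genotype had 0 on each diet, and without the filter 1 on starch and 2 on sucrose. The added calls were Fgb and Fgg, which were not well above background, and Ppbp was too dim to enter the stricter filter. Of 230 changes of member genes across the alternatives, 13 moved by more than the spot noise and 0 were called in the opposite direction. The others say little of stability, since the authors' value table holds the same values, no member spot was marked as an outlier, the filter leaves measured genes as they are, and Ppbp and Pf4 have a single probe. The median over the measured members changed sign without the filter for diet in heterozygous mice (0.04) and for genotype on starch (-0.03), and for genotype on sucrose it went from 0.13 to 0.0 among probes above the median signal. Some changes of Pf4 and Plat also changed sign under some settings. Among them was the Plat diet change in wild-type mice, which went from -0.23 to 0.06 with the mean over probes. No paired analysis was possible because each group had 1 array, and leaving out a replicate was not possible for the same reason. Signal over background limits Ppbp, Thbs1 and the fibrinogen genes most.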

Other observations

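Several vessel-wall and fibrinolysis genes differed modestly and in one direction for diet. Thbd, the gene of thrombomodulin, which turns thrombin towards activation of protein C, had levels of 1.51 on wild-type starch, 1.09 on wild-type sucrose, 1.52 on heterozygous starch and 0.998 on heterozygous sucrose. Its diet changes were -0.47 among wild-type and -0.61 among heterozygous mice. Anxa2 and S100a10 encode the subunits of a cell-surface complex that binds plasminogen and tissue plasminogen activator. Anxa2 had levels of 3.28, 2.48, 3.32 and 2.78, and S100a10 had 3.88, 2.84, 3.55 and 2.86, in the same order, so each was lower on both sucrose arrays. These genes were singled out after their values had been seen.

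Values for genes of protease inhibitors made in the brain are given by their brightest probes. Serpini1, which encodes neuroserpin, the inhibitor of tissue plasminogen activator in neurons, had levels of 31.2, 30.3, 30.5 and 26.4. Serpine2, which encodes the thrombin inhibitor protease nexin 1, had levels of 22.5, 24.6, 24.2 and 23.1. Their other probes gave other sizes. For Serpini1 the heterozygous sucrose array against wild-type starch was -0.24 by the brightest probe and -0.44 and -0.48 by the others. For Serpine2 the genotype change on starch was 0.11 by the brightest probe and 0.54 by the other.

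The 12 immediate early genes had median diet changes of -0.49 in wild-type mice, with 11 of 12 lower on sucrose (50.1% of all genes), and -0.79 in heterozygous mice, with 12 of 12 lower (49.9%). The 6 microglia markers had median diet changes of -0.08 and -0.02. The relation of these lists to the platelet genes was not tested.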
